A study of Homo sapiens with 18 samples.

Results

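The genes described here are 45 components of the transforming growth factor beta (TGF-beta) and bone morphogenetic protein (BMP) pathways, chosen by symbol from the 28277 genes of an RNA-seq count table. They are ligands and their binding proteins, receptors, secreted antagonists, SMAD signal transducers, SMAD corepressors and transcriptional targets. The cells were labelled OVCAR3, an established line derived from a human high-grade serous ovarian cancer, and all of them carried dCas9-KRAB, a catalytically dead Cas9 joined to a repressor domain that silences the promoter to which a guide RNA directs it. Control cells expressed sgCtl, a guide against the Gal4 promoter, which human cells lack, and the XIST knockdown (KD) cells expressed sgXIST7 or sgXIST9 against XIST, the long noncoding RNA that silences an X chromosome. Each guide was represented by clonal cells, so that a guide and its clone cannot be told apart. Each clone was kept in normoxia with no treatment or for 24 h at 1% oxygen (hypoxia), and 3 replicates of each of the 6 groups gave 18 libraries.

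TGF-beta, activin and BMP ligands are secreted dimers that bring together type II and type I receptor kinases on the cell surface. The type I receptor then phosphorylates receptor SMADs, SMAD2 and SMAD3 for TGF-beta and activin and SMAD1, SMAD5 and SMAD9 for BMPs, which join SMAD4 and enter the nucleus. SMAD6 and SMAD7 are inhibitory members that the pathway itself induces, and SKI and SKIL hold SMAD complexes in a repressed state. The ID genes, whose products bind and inactivate basic helix-loop-helix transcription factors, are classical direct targets of BMP signaling. In ovarian cancer the pathway is known for roles in growth arrest, epithelial-to-mesenchymal transition (EMT) and invasion.

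The 4 ID genes are BMP target genes, and their promoters are shown because all 4 were higher in both KD clones. Each sequence is a RefSeq window (GRCh38.p14) of 300 bases, 250 before and 50 after the annotated start, written 5′ to 3′ on the strand of the gene. Capitals mark CAGAC, the core of a SMAD-binding element, searched on both strands.
ID1: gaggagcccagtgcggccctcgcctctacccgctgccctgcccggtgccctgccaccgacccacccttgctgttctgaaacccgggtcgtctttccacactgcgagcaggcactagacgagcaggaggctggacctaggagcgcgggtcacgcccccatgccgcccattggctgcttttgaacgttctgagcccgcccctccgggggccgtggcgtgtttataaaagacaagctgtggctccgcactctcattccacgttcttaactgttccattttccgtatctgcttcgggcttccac
ID2: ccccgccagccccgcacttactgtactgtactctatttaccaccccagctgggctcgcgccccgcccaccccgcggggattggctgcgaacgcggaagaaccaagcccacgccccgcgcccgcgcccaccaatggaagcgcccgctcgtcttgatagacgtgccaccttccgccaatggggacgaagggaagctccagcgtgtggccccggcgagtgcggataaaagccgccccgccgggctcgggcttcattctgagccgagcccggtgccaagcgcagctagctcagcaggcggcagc
ID3: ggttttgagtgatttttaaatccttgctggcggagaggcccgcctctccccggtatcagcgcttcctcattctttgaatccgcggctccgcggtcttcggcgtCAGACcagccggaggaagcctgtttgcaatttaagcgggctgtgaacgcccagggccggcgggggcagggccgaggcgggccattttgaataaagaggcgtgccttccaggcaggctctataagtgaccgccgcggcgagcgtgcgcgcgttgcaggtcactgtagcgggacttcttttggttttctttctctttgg
ID4: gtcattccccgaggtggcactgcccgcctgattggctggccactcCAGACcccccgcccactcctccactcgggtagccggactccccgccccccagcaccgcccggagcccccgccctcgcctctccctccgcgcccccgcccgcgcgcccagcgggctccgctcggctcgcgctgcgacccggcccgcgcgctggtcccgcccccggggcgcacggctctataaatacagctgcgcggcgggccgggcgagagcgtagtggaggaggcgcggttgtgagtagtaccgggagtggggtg
The windows lie at chr20:31605039-31605338 (ID1, plus strand), chr2:8681806-8682105 (ID2, plus), chr1:23559452-23559751 (ID3, minus) and chr6:19837120-19837419 (ID4, plus). ID3 and ID4 each held 1 CAGAC and ID1 and ID2 held none, while 45.3% of the 35116 promoters in the table held at least 1. None of the 4 windows held GGCGCC, a GC-rich element bound by BMP SMADs, which reads the same on both strands and was present in 19.2% of all promoters. Only these windows were searched, so that elements farther from the start would have been missed. Of the 45 genes 27 had a promoter in the table, and 10 of them held GGCGCC and 10 held CAGAC. The cores of the hypoxia response element, ACGTG and GCGTG on either strand, were present in 8 and 12 of the 27, against 21.4% and 36.5% of all promoters. ID1 and ID2 each held 1 ACGTG and 2 GCGTG, ID3 held 2 GCGTG, and ID4 held neither.

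Total counts ranged from 11794375 to 24906936 per library. In normoxia the level of XIST was 241.9 to 867 CPM in sgCtl, where CPM is the read count of a gene scaled to the size of its library. It was 0.0436 to 0.222 CPM with sgXIST7 and 29 to 53.6 CPM with sgXIST9, so that more XIST remained with sgXIST9. Of 12 markers of serous ovarian epithelium, EPCAM and KRT18 were abundant, with group means of at least 140.1 CPM, and PAX8 was low, at group means of 1.51 to 4.55 CPM. KRT8 moved with the KD, with group means in normoxia of 9.13 CPM in sgCtl, 34.7 in sgXIST7 and 33.8 in sgXIST9, and in hypoxia of 4.41, 25.8 and 19.4. MUC16, KRT7, CDH1 and CLDN3, which are usual for this tumor type, were absent or nearly so, with at most 4 counts in any library. WT1, KRT19, CLDN4 and MSLN were also scarce, with group means of at most 0.58 CPM. These absent or scarce markers do not bear out the labelled cell line. The summed level of 7 fibroblast markers moved with the KD in normoxia, from 18.1 to 21.4 CPM in sgCtl to 111 to 152 in sgXIST7 and 57.4 to 85.2 in sgXIST9. COL1A2, itself a TGF-beta-responsive collagen gene, and THY1 carried nearly all of that sum, and DCN, LUM, PDGFRA, PDGFRB and FAP stayed at group means of at most 0.407 CPM in normoxia. The leukocyte markers PTPRC and CD3E were at or near 0, while CD68, a lysosomal protein gene that many cell types express, had group means of 16.1 to 46.3 CPM. The 5 endothelial markers summed to at most 0.893 CPM. The part of these marker genes in the results was not tested, and in bulk RNA a change in the share of cells and a change in RNA per cell cannot be told apart.

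Replicate libraries differed together for many of the pathway genes. In sgCtl normoxia, replicate 3 was the lowest library for 27 of the 38 genes tested (71.1%), against 29.1% of all 14938 genes tested. In hypoxia, replicate 3 was the lowest for 28 of the 38 in sgCtl (73.7%) and for 25 in sgXIST9 (65.8%), against 43.2% and 43.4% of all genes, and for 17 in sgXIST7 (44.7%) against 38.2%. A list of 10 hypoxia-induced genes was not lower as a whole in the hypoxia libraries numbered 3, with a median ratio of replicate 3 to the mean of replicates 1 and 2 of 1.23 in sgCtl, 1.27 in sgXIST7 and 1.51 in sgXIST9. Replicate 3 was the lowest for 4 of the 10 in sgCtl, 2 in sgXIST7 and 1 in sgXIST9. EGLN3 was lower in all 3 clones, at ratios of 0.211, 0.419 and 0.368. The numbers of members called in hypoxia are therefore given with and without the 3 hypoxia libraries numbered 3, and the part of these libraries in the results was not tested otherwise. Which libraries to leave out was chosen from the levels of the same pathway genes. Leaving them out raises the hypoxia level of any gene lowest in them, so that values without them are not separate evidence.

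Of the 45 genes 38 had enough counts to be tested. The 7 that did not were INHBB, BMP2, BMPR1B, FST, CHRD, GREM1 and TGFBI, with a highest count in any library between 1 (GREM1) and 23 (INHBB). TGFBI, a matrix protein named for its induction by TGF-beta, had no count in any normoxia library and had 5, 7 and 7 counts in sgCtl hypoxia. Per kilobase of exon, the most abundant members in sgCtl normoxia were ID3 (46.5 CPM per kb), ID1 (31.8) and BMPR1A (25.3), and the receptor SMADs ranged from 0.835 (SMAD9) to 17.1 (SMAD5). ID3 also has exons on alternate contigs of hg38, so that its level is uncertain where reads could be split between copies.

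In normoxia the KD clones had higher levels of the ID genes, SMAD6 and SMAD9 than sgCtl and lower levels of the ligand genes TGFB2, INHBA, BMP5, BMP7 and GDF6. TGFBR2, the type II receptor for TGF-beta, was higher in sgXIST7 and lower in sgXIST9. A gene was called when its adjusted p in edgeR's quasi-likelihood test was below 0.01 and its log2 fold change exceeded 1 in size. In sgXIST7, 9 of the 38 genes tested were called higher and 5 lower (23.7% and 13.2%), against 4.67% and 3.09% of all genes, and the median log2 fold change was 0.07 against -0.01 for all genes. In sgXIST9, 6 were called higher and 12 lower (15.8% and 31.6%), against 3.93% and 3.77%, with a median of -0.29 against -0.02. Both comparisons used the same 3 sgCtl libraries, so that their values are given side by side and do not bear on each other as separate evidence.

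**Figure D1:**
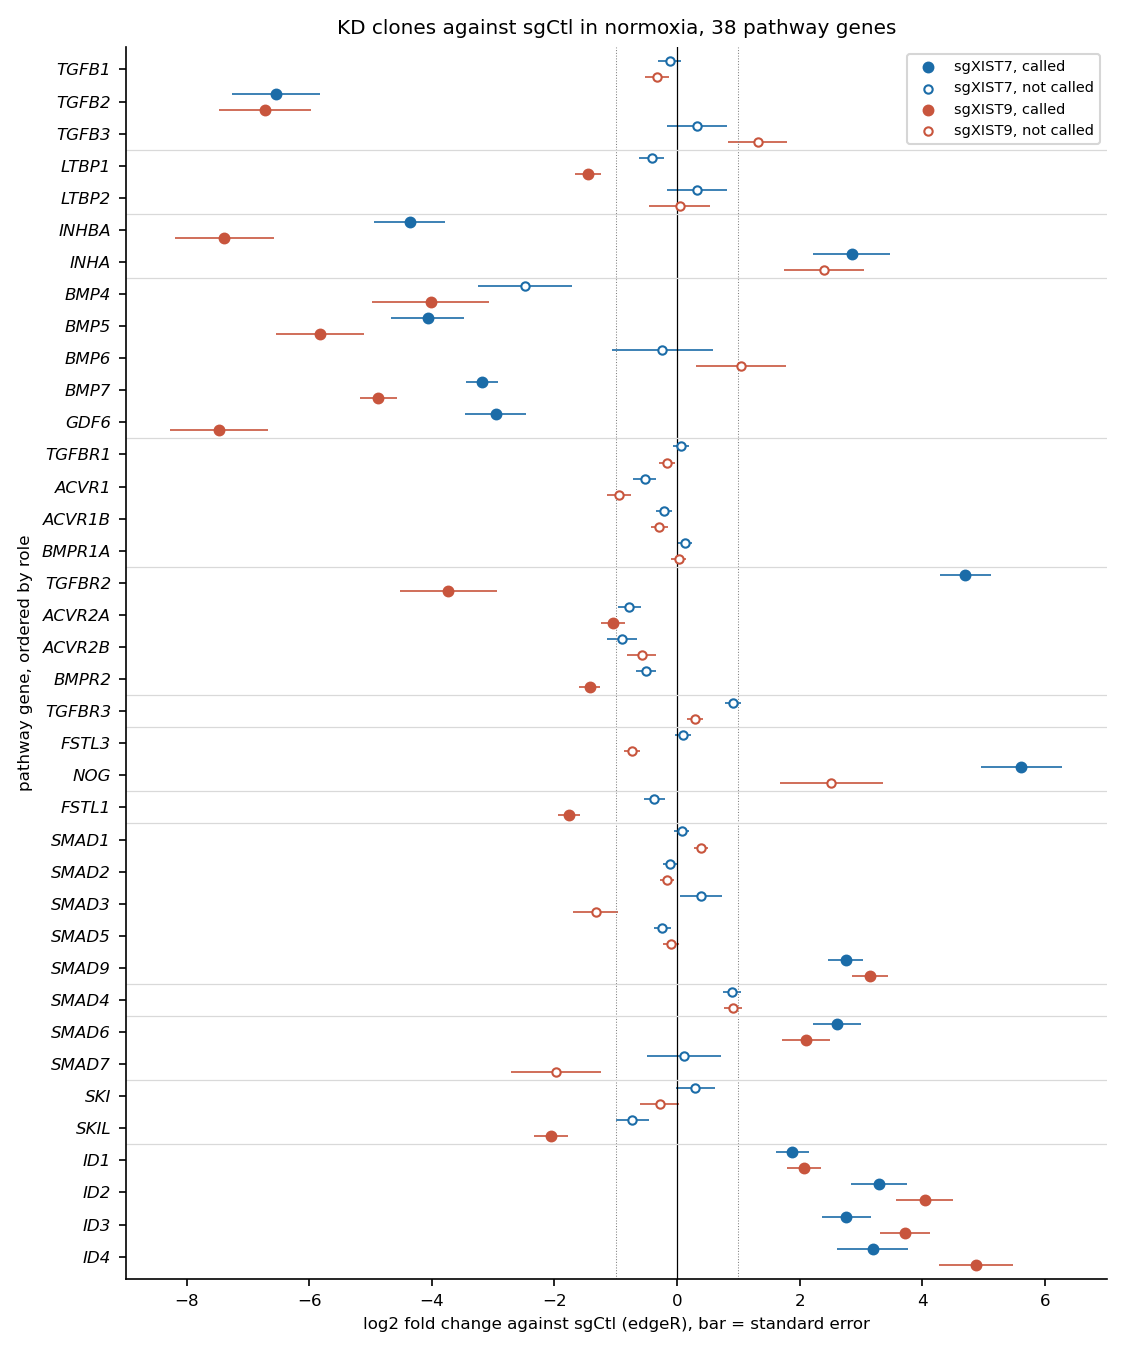
Log2 fold change of the 38 pathway genes tested, in sgXIST7 (blue) and sgXIST9 (red) against sgCtl in normoxia, with genes in rows ordered by role (ligands at the top, ID genes at the bottom) and bars of 1 standard error. Filled points were called, dotted lines mark a log2 fold change of 1 in either direction, and TGFBR2 is the gene called in opposite directions, at 4.70 and -3.73.

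The ID genes were the clearest group, with 4 of 4 called higher in each KD clone, against 4.67% of all genes in sgXIST7 and 3.93% in sgXIST9. No KD library lay within the range of the sgCtl libraries. The share of all genes that separate in this way, here and for the genes below, was not counted. ID2 was at 9.32, 4.41 and 2.47 CPM in replicates 1, 2 and 3 of sgCtl, at 69.5, 35.1 and 53 in sgXIST7, and at 99.98, 76.6 and 88.8 in sgXIST9. Its log2 fold changes were 3.29 ± 0.46 (SE) and 4.04 ± 0.46 (edgeR adjusted p = 4.3e-05 and 5.3e-06). ID4 was at 8.92, 4.25 and 1.38 CPM in sgCtl, at 62.2, 24.4 and 44.8 in sgXIST7, and at 146.8, 133.3 and 142.2 in sgXIST9. The lowest KD library for ID4 was still above the highest control library, and the log2 fold changes were 3.19 ± 0.58 and 4.87 ± 0.61 (edgeR adjusted p = 0.00059 and 1.3e-05). For ID3, the libraries were at 66.8, 38.3 and 27.5 CPM in sgCtl, at 349.5, 239.4 and 309.4 in sgXIST7, and at 580.1, 609.5 and 559.2 in sgXIST9, with log2 fold changes of 2.76 ± 0.40 and 3.72 ± 0.41. ID1, the least changed of the 4, was at 50.7, 36.9 and 29.1 CPM in sgCtl, at 180.2, 111.5 and 136.1 in sgXIST7, and at 186.2, 147.7 and 156 in sgXIST9. That gave log2 fold changes of 1.88 ± 0.27 and 2.07 ± 0.27 (edgeR adjusted p = 5.8e-05 and 2.1e-05). In all 4 genes replicate 1 was the highest and replicate 3 the lowest library of sgCtl in normoxia, and replicate 2 was the lowest in sgXIST7. Between the KD clones themselves, none of the ID genes was called, although ID4 was 1.68 ± 0.50 lower on the log2 scale in sgXIST7 (edgeR adjusted p = 0.046).

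**Figure D2:**
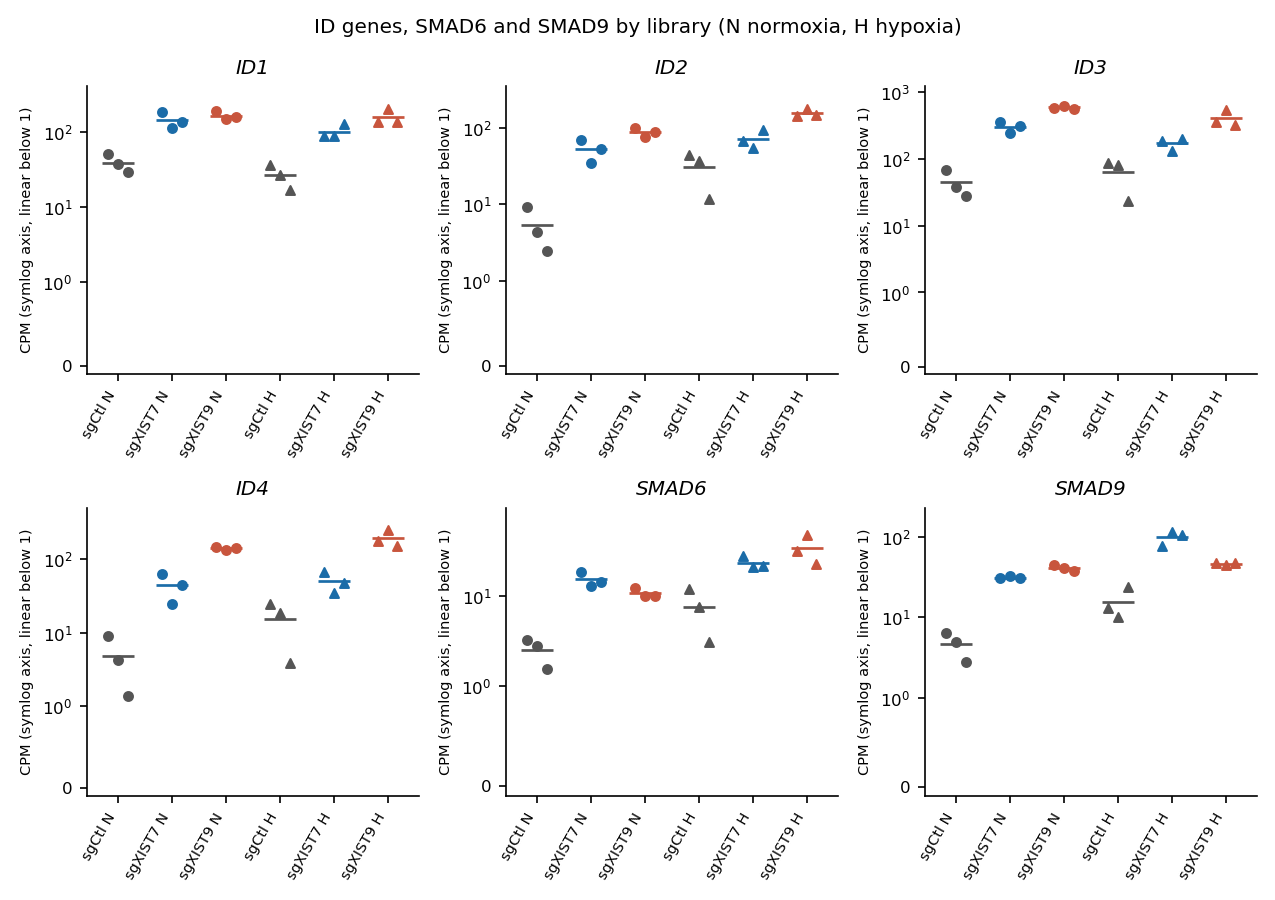
CPM of ID1, ID2, ID3, ID4, SMAD6 and SMAD9 in each of the 18 libraries (circles, normoxia; triangles, hypoxia; replicates 1 to 3 from left to right within a group) on a symlog axis that is linear below 1, with horizontal lines at the group means (N, normoxia; H, hypoxia). In normoxia the KD libraries of all 6 genes lie above the 3 sgCtl libraries, and in hypoxia sgCtl replicate 3 lies below the other two sgCtl libraries for the 4 ID genes and SMAD6, at 0.178 to 0.536 of their mean.

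Among the SMAD genes, SMAD9 and SMAD6 were higher in both KD clones and the other receptor SMADs were not called. SMAD9 (hg38 chr13:36844831-36920272) encodes a BMP receptor SMAD, also known as SMAD8. It was at 6.31, 4.95 and 2.76 CPM in sgCtl, at 31.1, 32.2 and 30.4 in sgXIST7, and at 45.1, 40.9 and 37.2 in sgXIST9. The groups did not overlap, and the log2 fold changes were 2.75 ± 0.29 and 3.15 ± 0.29 (edgeR adjusted p = 2e-06 and 4e-07). SMAD6, the inhibitory SMAD that acts mainly on BMP receptors, was at 3.29, 2.78 and 1.55 CPM in sgCtl, at 18.7, 13.1 and 14.2 in sgXIST7, and at 12.4, 9.93 and 10.04 in sgXIST9. Its log2 fold changes were 2.61 ± 0.39 and 2.10 ± 0.39 (edgeR adjusted p = 9.5e-05 and 0.00076). SMAD4, the partner common to both branches, rose by less than the fold threshold, with log2 fold changes of 0.90 ± 0.15 and 0.92 ± 0.15 (edgeR adjusted p = 0.0002 and 0.00017). SMAD1, SMAD2 and SMAD5 had log2 fold changes between -0.24 and 0.39, none called. SMAD3 and SMAD7, which serve and restrain the TGF-beta branch, had log2 fold changes of -1.33 ± 0.36 and -1.98 ± 0.73 in sgXIST9 and of 0.39 ± 0.34 and 0.11 ± 0.60 in sgXIST7, and none of these 4 passed the test. Both SMAD3 and SMAD7 were called lower in sgXIST9 without the 3 hypoxia libraries numbered 3, which enter the shared estimate of spread (-1.33 and -1.98, edgeR adjusted p = 0.00015 and 0.00092).

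Several ligand genes were lower in the KD clones. Of the 3 TGF-beta ligands 1 was called lower in each clone, of the 2 activin and inhibin subunits tested 1 was called lower in each, and of the 5 BMP and GDF ligands tested 3 were called lower in sgXIST7 and 4 in sgXIST9. Of all genes, 3.09% were called lower in sgXIST7 and 3.77% in sgXIST9. TGFB2 (hg38 chr1:218345284-218444619) was at 13.3, 7.35 and 3.04 CPM in sgCtl and had 5 counts in all over the 3 sgXIST7 libraries and 4 over the 3 sgXIST9 libraries. The pooled ratio of sgCtl to sgXIST7 was 98.3 (exact 95% interval 41.7 to 304.6, counting error only), and that of sgCtl to sgXIST9 was 111.9 (43.3 to 412.9). The other TGF-beta ligands did not follow it. TGFB1 had log2 fold changes of -0.12 ± 0.19 and -0.33 ± 0.19, and TGFB3 had 0.33 ± 0.49 and 1.32 ± 0.48, none of them called. Without the 3 hypoxia libraries numbered 3, TGFB3 was called higher in sgXIST9 (1.31, edgeR adjusted p = 0.00027).

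INHBA (hg38 chr7:41685114-41703090) encodes the subunit of activin A, which signals through SMAD2 and SMAD3. It was at 10.2, 7.35 and 3.16 CPM in sgCtl and at 0.303, 0.333 and 0.349 in sgXIST7, a log2 fold change of -4.36 ± 0.58 (edgeR adjusted p = 2.8e-05). In sgXIST9 it had 1, 0 and 1 counts, so that sgCtl was 194.7 times higher (53.4 to 1615 by counting error). INHA, whose product pairs with that subunit to form inhibin, an activin antagonist, went the other way. It had 2, 3 and 1 counts in sgCtl, 21, 27 and 15 in sgXIST7 and 17, 13 and 13 in sgXIST9, with pooled ratios to sgCtl of 7.42 (3.22 to 21) and 5.56 (2.35 to 16). INHA was called in sgXIST7 (log2 fold change 2.85 ± 0.63, edgeR adjusted p = 0.0029) and not in sgXIST9 (2.40 ± 0.65, edgeR adjusted p = 0.013). Without the 3 hypoxia libraries numbered 3, INHA was called higher in sgXIST9 (2.40, edgeR adjusted p = 0.0018). The sgXIST7 call was lost without sgCtl replicate 1 (2.85), sgCtl replicate 3 (2.44) or sgXIST7 replicate 2 (2.49).

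BMP7 (hg38 chr20:57168753-57266641), a ligand of the osteogenic BMP class, was the BMP ligand with the most counts in sgCtl. It was at 18.4, 22.2 and 23.6 CPM in sgCtl, at 1.95, 2.56 and 2.57 in sgXIST7 and at 0.714, 0.425 and 1.05 in sgXIST9. The 3 groups were fully separated, with log2 fold changes of -3.18 ± 0.26 and -4.88 ± 0.30 (edgeR adjusted p = 1.4e-07 and 3.1e-09). BMP5, of the same class, was at 10.1, 6.27 and 2.41 CPM in sgCtl and at 0.13, 0.555 and 0.436 in sgXIST7, a log2 fold change of -4.07 ± 0.59 (edgeR adjusted p = 7e-05). In sgXIST9 BMP5 had 3, 0 and 3 counts, a pooled ratio of sgCtl to sgXIST9 of 58.7 (26.6 to 161.3). GDF6, a growth and differentiation factor that signals through BMP receptors, was at 4.76, 3.4 and 4.54 CPM in sgCtl, at 0.735, 0.333 and 0.523 in sgXIST7 and at 1, 0 and 0 counts in sgXIST9. Its log2 fold change in sgXIST7 was -2.96 ± 0.49 (edgeR adjusted p = 0.00025), and sgCtl was 250.2 times above sgXIST9 (44.4 to 9931). BMP4 was scarce throughout, with 5, 7 and 5 counts in sgCtl, 1, 1 and 2 in sgXIST7 and 1, 0 and 0 in sgXIST9. It was called in sgXIST9 (edgeR adjusted p = 0.0054), where its pooled ratio was 21.9 (3.44 to 916.1). That call was lost with DESeq2, and when any of 5 of the 6 libraries compared was left out, the exception being sgCtl replicate 3. BMP6 was not called in either clone.

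**Figure D3:**
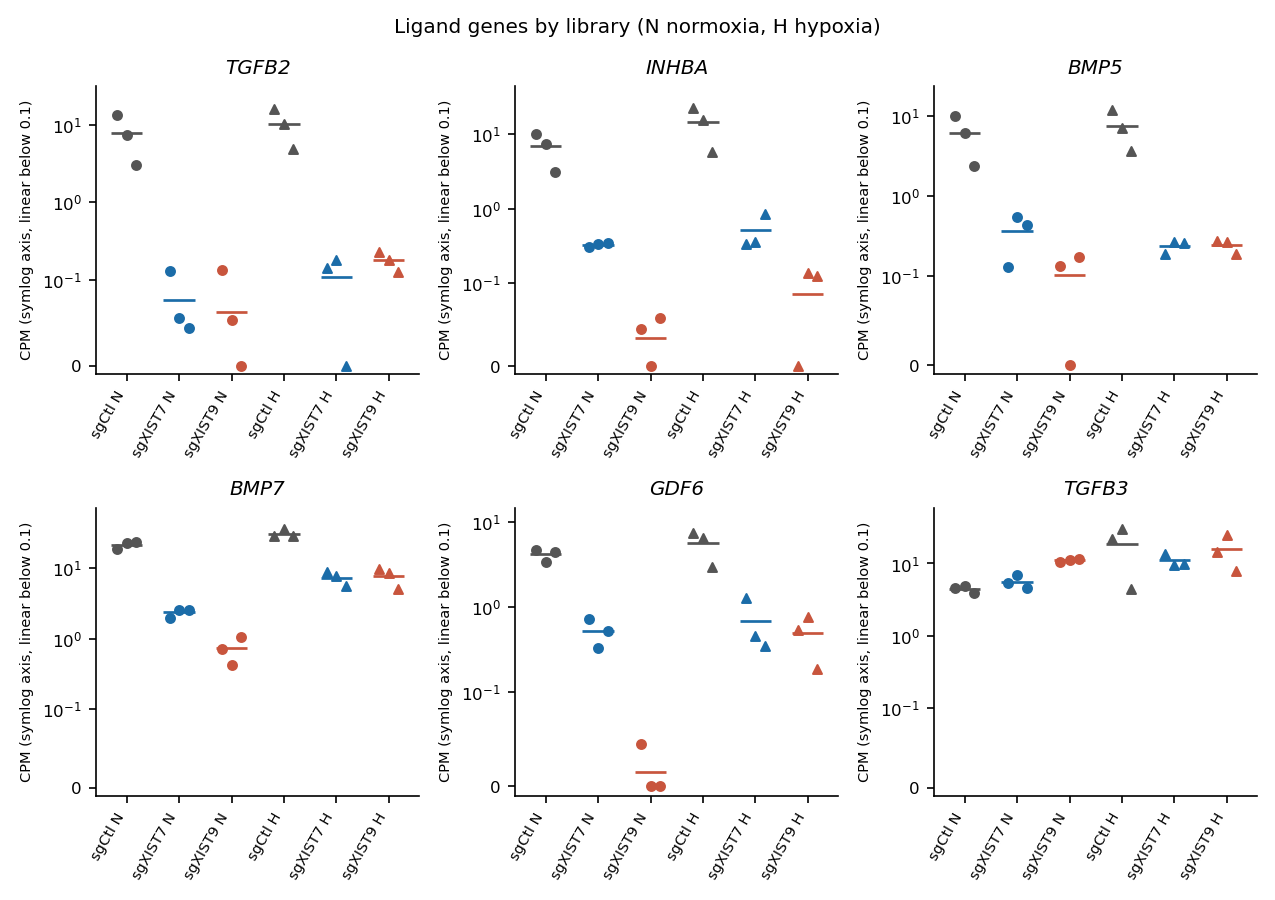
CPM of the ligand genes TGFB2, INHBA, BMP5, BMP7, GDF6 and TGFB3 in each library (circles, normoxia; triangles, hypoxia) on a symlog axis that is linear below 0.1, with lines at the group means. TGFB2, INHBA and BMP5 stay below 1 CPM in every KD library in both oxygen conditions, while BMP7 in the KD clones lies higher in hypoxia than in normoxia.

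Of the receptor genes, TGFBR2 separated the KD clones. It was the only 1 of the 4 type II receptors called between sgXIST7 and sgXIST9. None of the 4 type I receptors tested was called in either clone, and ACVR1, which can pair with BMP and activin type II receptors, was the lowest at -0.53 ± 0.19 and -0.95 ± 0.20. TGFBR2 (hg38 chr3:30606502-30694141) had 8, 10 and 6 counts in sgCtl, 321, 277 and 306 in sgXIST7 and 1, 1 and 0 in sgXIST9. In CPM these were 0.537, 0.773 and 0.344 in sgCtl and 13.9, 15.4 and 13.3 in sgXIST7, a log2 fold change of 4.70 ± 0.42 (edgeR adjusted p = 3.1e-07). In sgXIST9 the pooled ratio of sgCtl to sgXIST9 was 15.5 (3.84 to 135.1), called with edgeR adjusted p = 0.0024. That call was lost without sgCtl replicate 2 (-3.44), sgXIST9 replicate 1 (-3.97) or sgXIST9 replicate 3 (-3.30). ACVR2A, a type II receptor for activins, was at 26.4, 24.1 and 26.7 CPM in sgCtl, at 15.6, 13.4 and 15.8 in sgXIST7 and at 12.4, 12.5 and 12.5 in sgXIST9. It was called in sgXIST9 (-1.04 ± 0.19, edgeR adjusted p = 0.00068), and in sgXIST7 the change of -0.78 ± 0.19 was below the fold threshold. ACVR2B, also a type II receptor, had group means of 11.7 CPM in sgCtl, 6.28 in sgXIST7 and 7.84 in sgXIST9. It was not called in either clone and was lower in sgXIST7 than in sgXIST9. BMPR2, the main type II receptor for BMPs, was at 67, 96.5 and 62.6 CPM in sgCtl, at 45.2, 66.9 and 46.7 in sgXIST7 and at 28, 28.5 and 27.4 in sgXIST9. The sgXIST7 libraries overlapped those of sgCtl and the sgXIST9 libraries did not, with log2 fold changes of -0.51 ± 0.16 and -1.43 ± 0.17, the second called (edgeR adjusted p = 5.6e-06). TGFBR3, the co-receptor betaglycan, had log2 fold changes of 0.91 ± 0.13 and 0.29 ± 0.13, not called.

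Of the secreted antagonists, NOG stood out in sgXIST7. Its product noggin binds BMPs and keeps them from their receptors. NOG had 2, 0 and 1 counts in sgCtl, 112, 33 and 92 in sgXIST7 and 10, 5 and 9 in sgXIST9. The pooled ratio of sgXIST7 to sgCtl was 55.8 (18.9 to 272.4), called with edgeR adjusted p = 8e-06, and that of sgXIST9 was 6.2 (1.88 to 32.2), which did not pass the test (edgeR adjusted p = 0.04). FSTL3, an activin-binding protein, had log2 fold changes of 0.10 ± 0.13 and -0.74 ± 0.13 and was not called. FST, CHRD and GREM1 were not tested, and none of them exceeded 5 counts in a normoxia library.

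LTBP1, FSTL1 and SKIL were called lower in sgXIST9 and not called in sgXIST7, as were BMP4 and the receptors ACVR2A and BMPR2 above. LTBP1 encodes a matrix protein that holds latent TGF-beta. It was at 3.82, 4.72 and 5.22 CPM in sgCtl, at 3.76, 3.5 and 3.09 in sgXIST7 and at 1.7, 1.86 and 1.46 in sgXIST9, with log2 fold changes of -0.41 ± 0.20 and -1.45 ± 0.21. FSTL1, a secreted glycoprotein of the follistatin family, was at 45.1, 44.8 and 47.6 CPM in sgCtl, at 41.8, 30.7 and 34 in sgXIST7 and at 14.6, 12.5 and 13.4 in sgXIST9, with log2 fold changes of -0.37 ± 0.18 and -1.76 ± 0.19. SKIL, the corepressor SnoN, was at 129.5, 142.2 and 122.7 CPM in sgCtl, at 87.5, 74.3 and 75.6 in sgXIST7 and at 34.2, 28.8 and 31.4 in sgXIST9. The 3 groups of SKIL were separated, at -0.73 ± 0.27 and -2.06 ± 0.28. The edgeR adjusted p of these genes in sgXIST9 was 7e-05 for LTBP1, 1.8e-06 for FSTL1 and 3.2e-05 for SKIL. SKI, the related corepressor, was not called in either clone.

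Whether the clones differed was tested directly between sgXIST7 and sgXIST9 in normoxia. Of the 38 genes 8 were called higher in sgXIST7 (21.1%) and 0 lower, against 2.09% and 1.31% of all genes, and 18 of the 38 had an unadjusted p below 0.05. TGFBR2 differed most, with 904 counts over the sgXIST7 libraries and 2 over the sgXIST9 libraries, a pooled ratio of 411.6 (113.6 to 3404, edgeR adjusted p = 2.4e-08). NOG was 3.10 ± 0.48 higher in sgXIST7 on the log2 scale, FSTL1 1.40 ± 0.18 and BMP7 1.69 ± 0.32 (edgeR adjusted p = 0.00033, 5.5e-05 and 0.0018). SMAD3, which at 2.9, 2.12 and 3.04 CPM in sgXIST9 lay below all of 7.13, 11.9 and 7.62 in sgXIST7, differed by 1.72 ± 0.36. GDF6, SKIL and LTBP1 were the others, at 4.51 ± 0.98, 1.33 ± 0.27 and 1.04 ± 0.21. The calls for GDF6, SKIL, LTBP1, SMAD3 and BMP7 were lost when single libraries were left out, so that the number called fell to 3 without sgXIST9 replicate 1 or 2, 4 without sgXIST9 replicate 3 and 5 without sgXIST7 replicate 2.

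**Figure D4:**
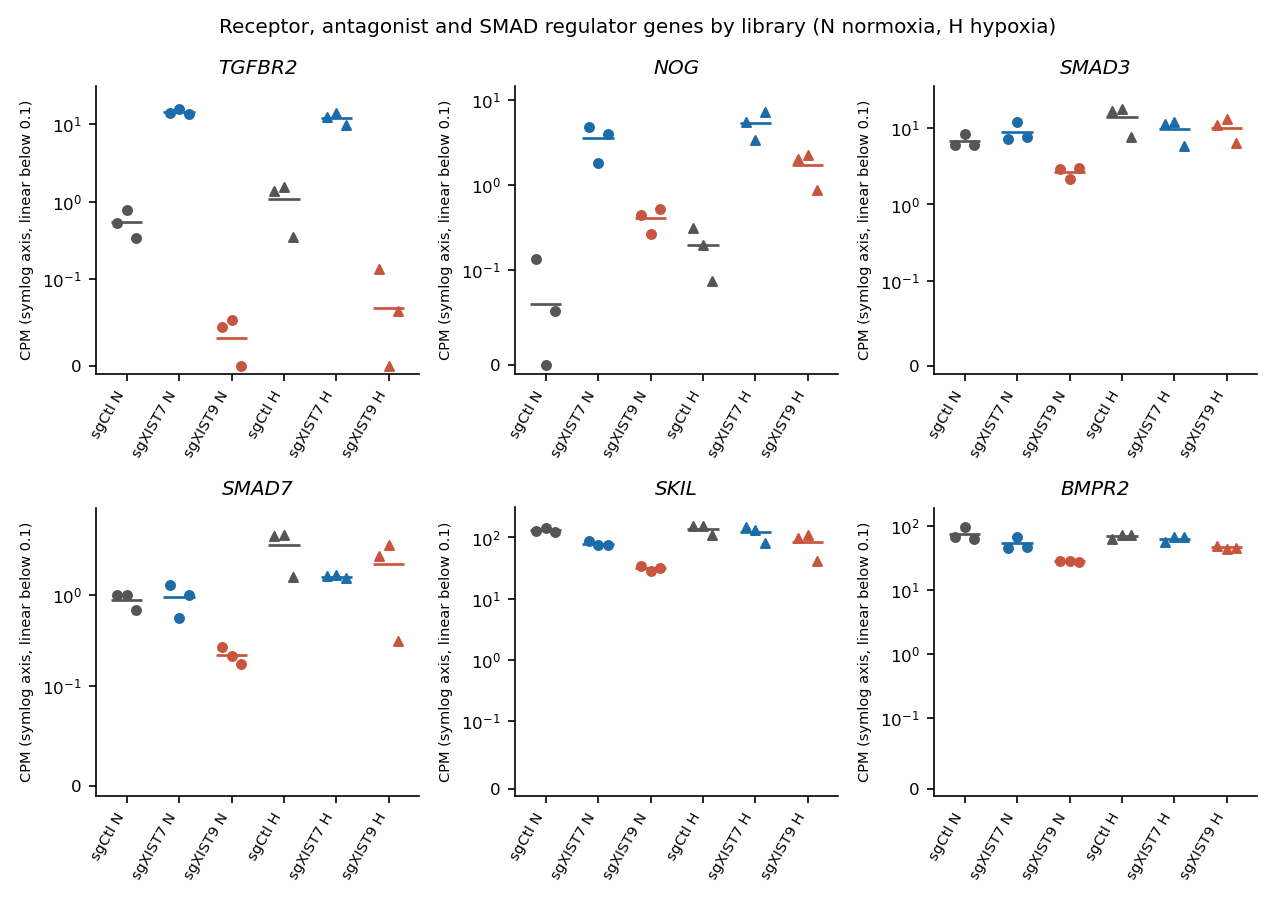
CPM of TGFBR2, NOG, SMAD3, SMAD7, SKIL and BMPR2 in each library (circles, normoxia; triangles, hypoxia) on a symlog axis that is linear below 0.1, with lines at the group means. TGFBR2 lies between 9.76 and 15.4 CPM in sgXIST7, at up to 1.54 in sgCtl and at up to 0.137 in sgXIST9.

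Most members called in hypoxia were higher than in normoxia. FSTL1 and SMAD9 were called in sgCtl and sgXIST7, SMAD6 and SMAD7 in sgCtl and sgXIST9, and BMP7 in both KD clones. In sgCtl 8 of the 38 were called higher and 1 lower (21.1% and 2.63%), against 11.3% and 8.49% of all genes, with a median log2 fold change of 0.65 against 0.02. In sgXIST7 3 were higher and 1 lower (7.89% and 2.63%), a share below the 15.1% and 12.2% of all genes, with a median of 0.44 against 0.01. In sgXIST9 8 were higher and 0 lower (21.1% and 0%), against 14.7% and 8.58%, with a median of 0.83 against 0.09. Without the 3 hypoxia libraries numbered 3, the numbers called were 14 in place of 9 in sgCtl, 6 in place of 4 in sgXIST7 and 12 in place of 8 in sgXIST9.

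In sgCtl the genes called were TGFB3, BMP6, ACVR1B, ACVR2A, SMAD9, SMAD6, SMAD7, ID2 and FSTL1. ID2 went from 9.32, 4.41 and 2.47 CPM to 43.8, 37.4 and 11.8, a log2 fold change of 2.54 ± 0.45 (edgeR adjusted p = 0.00019). SMAD9 went from 6.31, 4.95 and 2.76 CPM to 12.9, 10.02 and 23.6, and replicate 3 was here the highest library rather than the lowest (1.72 ± 0.29, edgeR adjusted p = 0.00011). The receptors ACVR1B, which mediates activin and nodal signals, and ACVR2A rose without overlap. ACVR1B went from 13.6, 18.2 and 16 CPM to 34.9, 38.4 and 29.7 and ACVR2A from 26.4, 24.1 and 26.7 to 64.3, 67.7 and 41.3, with log2 fold changes of 1.11 ± 0.14 and 1.17 ± 0.19 (edgeR adjusted p = 4.8e-06 and 7.4e-05). FSTL1 fell from 45.1, 44.8 and 47.6 CPM to 19.9, 24 and 16.2, a log2 fold change of -1.19 ± 0.18 (edgeR adjusted p = 4.5e-05).

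The other 4 calls in sgCtl rested on libraries that differed among themselves. TGFB3, the ligand known for roles in palate and lung development, went from 4.56, 4.87 and 3.9 CPM to 21.6, 29.9 and 4.43, so that replicate 3 lay within the range of normoxia (2.08 ± 0.49, edgeR adjusted p = 0.0018). SMAD7 went from 1.01, 1.005 and 0.689 CPM to 4.56, 4.71 and 1.59 (2.03 ± 0.57, edgeR adjusted p = 0.0069) and SMAD6 from 3.29, 2.78 and 1.55 to 11.9, 7.54 and 3.1 (1.60 ± 0.40, edgeR adjusted p = 0.003). BMP6, which is induced by iron in the liver and signals through ACVR1, went from 3, 7 and 2 counts to 35, 32 and 4 (2.36 ± 0.68, edgeR adjusted p = 0.0084). Each of these calls was lost when certain single libraries were left out, among them sgCtl normoxia replicate 3 for all 4 genes, without which the log2 fold changes were 1.99 for TGFB3, 1.86 for SMAD7, 1.32 for SMAD6 and 1.94 for BMP6. TGFB3 was also lost without sgCtl hypoxia replicate 2 (1.57), SMAD6 without sgCtl hypoxia replicate 1 (1.13), SMAD7 without replicate 1 or 2 of either sgCtl group (1.80 to 2.12), and BMP6 without sgCtl normoxia replicate 1, sgCtl hypoxia replicate 1 or 2 (1.91 to 2.27) or any of 8 libraries of the KD clones. Without the 3 hypoxia libraries numbered 3 all 4 were called, at 2.54, 2.38, 1.95 and 2.78.

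In sgXIST7 the genes called were INHA, BMP7, SMAD9 and FSTL1. SMAD9 went from 31.1, 32.2 and 30.4 CPM to 77.1, 116.1 and 107, the highest levels of this gene in any group, and the log2 fold change was 1.68 ± 0.25 (edgeR adjusted p = 2.5e-05). INHA went from 0.908, 1.5 and 0.653 CPM to 2.29, 3.35 and 7.77 (2.11 ± 0.42, edgeR adjusted p = 0.00039). BMP7 went from 1.95, 2.56 and 2.57 CPM to 8.65, 7.57 and 5.53, without overlap but below every sgCtl library (1.63 ± 0.26, edgeR adjusted p = 4.4e-05). FSTL1 fell from 41.8, 30.7 and 34 CPM to 17.1, 13.3 and 12.2 (-1.32 ± 0.18, edgeR adjusted p = 1.1e-05).

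In sgXIST9 the genes called were LTBP1, BMP7, GDF6, NOG, SMAD3, SMAD6, SMAD7 and SKIL. BMP7 went from 0.714, 0.425 and 1.05 CPM to 9.57, 8.58 and 5.11, a log2 fold change of 3.42 ± 0.30 (edgeR adjusted p = 8.9e-08). GDF6 went from 1, 0 and 0 counts to 12, 17 and 3, a pooled ratio of 31.2 (5.21 to 1271), and stayed below sgCtl. LTBP1 went from 1.7, 1.86 and 1.46 CPM to 4.47, 5.36 and 3.28 (1.39 ± 0.21, edgeR adjusted p = 3.3e-05). For SMAD3 and the SMAD regulators every hypoxia library lay above every normoxia library, with replicate 3 the lowest of the hypoxia libraries. SMAD7 went from 0.268, 0.212 and 0.175 CPM to 2.73, 3.58 and 0.316 (3.31 ± 0.67, edgeR adjusted p = 0.0005), SMAD6 from 12.4, 9.93 and 10.04 to 31.7, 48.4 and 22.7 (1.67 ± 0.34, 0.00061), SMAD3 from 2.9, 2.12 and 3.04 to 10.8, 13 and 6.37 (1.91 ± 0.36, 0.00026) and SKIL from 34.2, 28.8 and 31.4 to 99.7, 109.6 and 41.5 (1.41 ± 0.28, 0.00036). NOG went from 0.446, 0.266 and 0.525 CPM to 2.05, 2.27 and 0.884 (2.08 ± 0.50, edgeR adjusted p = 0.0019), and its call was lost without sgXIST9 normoxia replicate 2 (1.85).

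Other members shifted in hypoxia without being called. TGFBR1, the type I receptor for TGF-beta, rose by 0.65 ± 0.13, 0.53 ± 0.13 and 0.56 ± 0.13 on the log2 scale in sgCtl, sgXIST7 and sgXIST9 (edgeR adjusted p = 0.00051, 0.002 and 0.0014), and the antagonist FSTL3 by 0.73 ± 0.13, 0.57 ± 0.13 and 0.83 ± 0.13. SMAD1, the BMP receptor SMAD, had log2 fold changes of -0.70 ± 0.12, -0.84 ± 0.12 and -0.44 ± 0.12 (edgeR adjusted p = 0.00012, 1.1e-05 and 0.0041). TGFBR1, FSTL3 and SMAD1 passed the p threshold in all 3 clones and were not called because of their size. BMPR1A, a type I receptor for BMPs, had -0.64 ± 0.12 in sgCtl, -0.38 ± 0.12 in sgXIST7 and 0.02 ± 0.12 in sgXIST9. LTBP2, a matrix protein related to LTBP1, had log2 fold changes of 1.32, 1.04 and 0.73 in sgCtl, sgXIST7 and sgXIST9 that did not pass the test (edgeR adjusted p = 0.03, 0.061 and 0.2). Without the 3 hypoxia libraries numbered 3, which were the lowest for LTBP2 in each clone, it was called higher in all 3 clones. The log2 fold changes were then 1.74, 1.23 and 1.05 (edgeR adjusted p = 9.2e-05, 0.0012 and 0.0056).

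**Figure D5:**
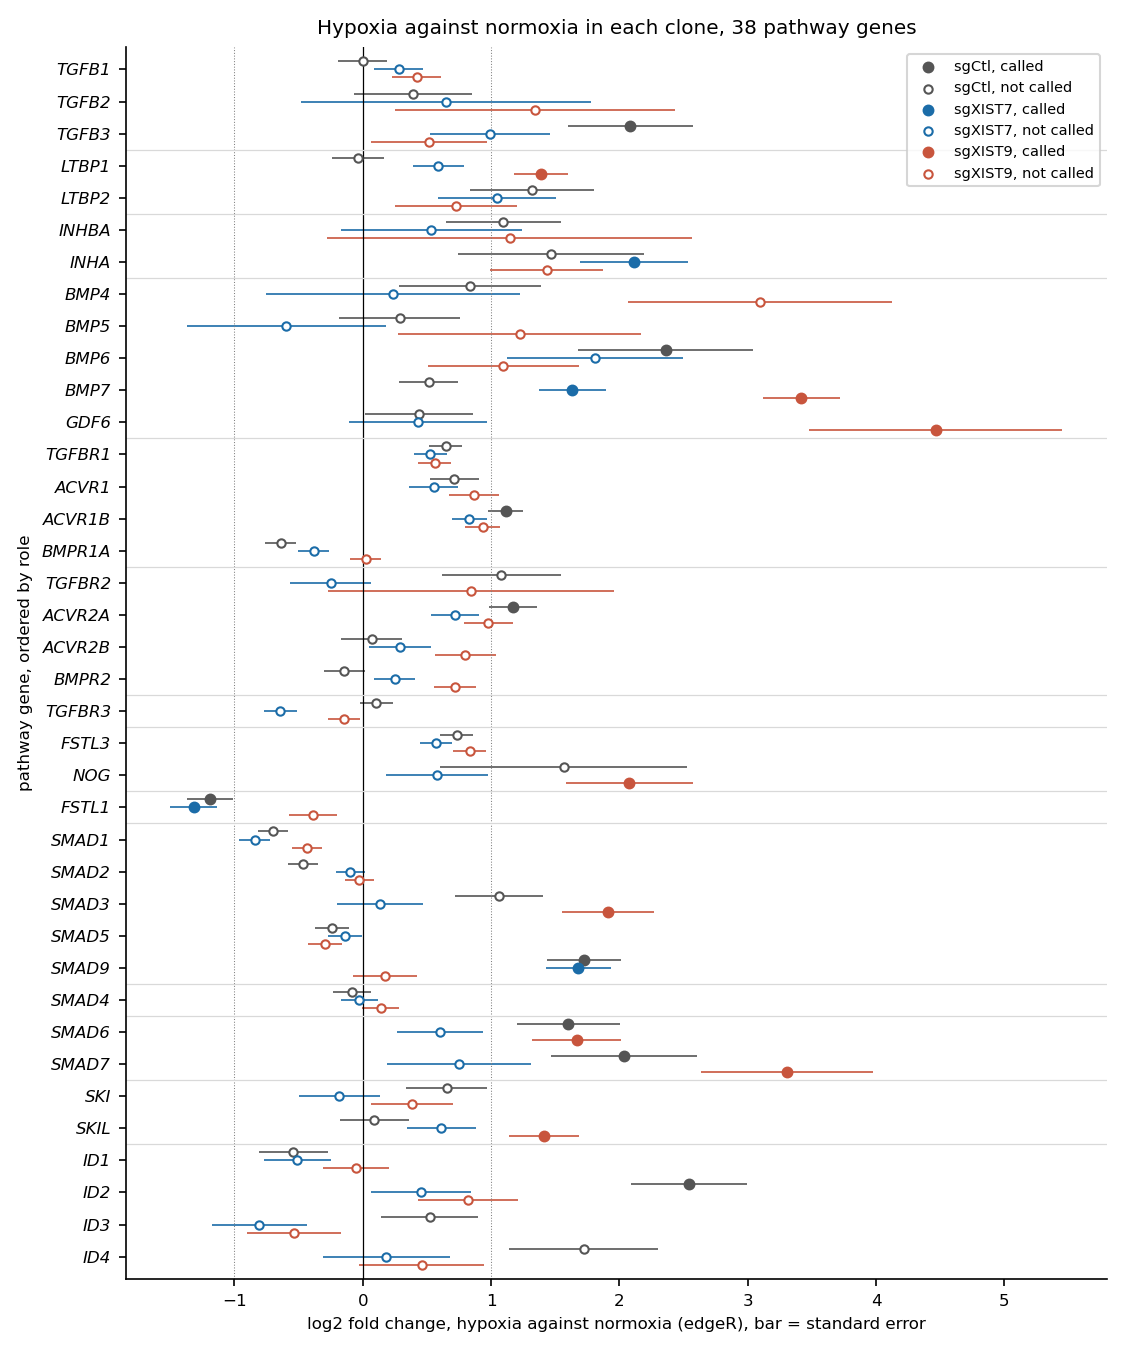
Log2 fold change of the 38 pathway genes tested in hypoxia against normoxia, in sgCtl (grey), sgXIST7 (blue) and sgXIST9 (red), with genes in rows ordered by role and bars of 1 standard error. Filled points were called, and BMP7 is called in both KD clones, at 1.63 and 3.42, and not in sgCtl, at 0.51.

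The difference between hypoxia responses was tested as an interaction. BMP7 was the 1 member called, with a response 2.90 ± 0.38 larger on the log2 scale in sgXIST9 than in sgCtl (edgeR adjusted p = 0.00044), where 1.01% of all genes were called. In sgCtl it went from 18.4, 22.2 and 23.6 CPM to 27.9, 35.8 and 27.9 (0.51 ± 0.23), so that the KD clones started from a lower level and stayed below sgCtl in hypoxia. For sgXIST7 against sgCtl no member was called in edgeR, against 1.52% of all genes, with 7 members at an unadjusted p below 0.05 and 1 member called by DESeq2. ID2 had the largest such difference for sgXIST7, a response 2.09 ± 0.59 smaller than in sgCtl (edgeR adjusted p = 0.038). Without the 3 hypoxia libraries numbered 3, 3 members were called for sgXIST7 (ID2, TGFB3 and BMP7, at -2.70, -1.47 and 1.22) and 5 for sgXIST9 (BMP7, GDF6, LTBP1, SKIL and TGFB3, at 3.07, 4.10, 1.65, 1.5 and -1.70).

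The KD clones were also compared with sgCtl within hypoxia. In sgXIST7 7 members were called higher and 7 lower (18.4% each), against 7.83% and 6.19% of all genes, and in sgXIST9 9 were higher and 7 lower (23.7% and 18.4%), against 6.14% and 3.39%. Leaving out the 3 hypoxia libraries numbered 3 gave 16 members called in place of 14 in sgXIST7 and 15 in place of 16 in sgXIST9. The call of SMAD4 in sgXIST9 was lost without these libraries. TGFB2, INHBA and BMP5 remained at or below 0.863 CPM in every KD library, against 15.9, 10.2 and 4.87 CPM of TGFB2, 22.3, 15.7 and 5.85 of INHBA and 11.9, 7.1 and 3.63 of BMP5 in sgCtl. TGFBR2 was at 1.38, 1.54 and 0.354 CPM in sgCtl, at 12.3, 13.6 and 9.76 in sgXIST7 and at 3, 0 and 1 counts in sgXIST9. For the ID genes in hypoxia, all 4 were called higher in sgXIST9 (2.32 to 3.61), and in sgXIST7 ID1 and ID3 were called (1.91 and 1.43) while ID2 and ID4, at 1.20 and 1.65, did not pass the test (edgeR adjusted p = 0.023 and 0.017). The ID3 call in sgXIST7 was lost without the 3 hypoxia libraries numbered 3, at 0.92, and without sgCtl replicate 2 (1.65), sgXIST7 replicate 1 (1.37) or sgXIST7 replicate 3 (1.31). With only the groups compared in the fit, the members called in sgXIST9 numbered 8 in place of 16, and the calls of ID2 and ID3 were among those lost. INHBB, a second activin subunit that was too scarce to be tested, had 12, 23 and 3 counts in sgCtl hypoxia, 4, 8 and 2 in sgXIST9 hypoxia and 1 in all in sgXIST7 hypoxia, and the sgCtl count was 36.3 times that in normoxia (6.13 to 1469). TGFBI had 19 counts over the 3 sgCtl hypoxia libraries and 0 over the 3 in normoxia. With 3 counts put in place of the 0 over the normoxia group, the ratio of hypoxia to normoxia was 6.04. The exact 95% interval of the ratio, which covers counting error in both groups, began at 4.45.

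A wider list of 80 ligands, modulators and targets of the same pathways was read for context, and 47 of them were tested. In normoxia 7 were called higher and 2 lower in sgXIST7 (14.9% and 4.26%, against 4.67% and 3.09% of all genes) and 6 and 5 in sgXIST9 (12.8% and 10.6%, against 3.93% and 3.77%). SNAI2, which encodes the EMT transcription factor Slug, had log2 fold changes of 3.57 and 4.34, HEY1, a transcriptional repressor of the Notch pathway that BMP also induces, 3.79 and 3.49, COL1A1, a fibrillar collagen, 2.30 and 2.0, and NEO1, which encodes the BMP co-receptor neogenin, 1.12 and 1.56. PMEPA1, a TGF-beta-induced inhibitor of receptor SMADs, was lower by -2.69 and -5.72, and GDF15, a stress-induced divergent family member, by -3.56 and -4.34. COL1A1 moved in normoxia with the fibroblast marker COL1A2, whose group means were 0.275 CPM in sgCtl, 96.7 in sgXIST7 and 49.2 in sgXIST9. In hypoxia 13 of the 47 were called higher and 3 lower in sgCtl (27.7% and 6.38%, against 11.3% and 8.49% of all genes), 12 and 1 in sgXIST7 (25.5% and 2.13%, against 15.1% and 12.2%), and 10 and 0 in sgXIST9 (21.3% and 0%, against 14.7% and 8.58%). CCN2, a matricellular TGF-beta and hypoxia target, rose by 3.98, 2.33 and 2.78 in sgCtl, sgXIST7 and sgXIST9, THBS1, an activator of latent TGF-beta, by 2.28, 2.40 and 4.05, JUNB, an AP-1 subunit, by 1.87, 3.25 and 1.97, PMEPA1 by 1.71, 3.59 and 5.52, and HEY1 by 2.75, 1.29 and 2.66.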

How the data were processed

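Total RNA from 18 libraries (TruSeq Stranded Total RNA) was sequenced, and the authors deposited 1 table of raw read counts per gene made on hg38. The submitters' processing notes name Trimmomatic, FastQC, HISAT2 and DESeq2. The annotation release and the strand setting of the counting are not given in the sources used here, so that antisense or overlapping genes could share reads. After 2 broken lines were left out, 28277 genes remained. Groups and replicate numbers came from the sample titles. The study calls the replicates biological, and the labels do not say whether they were separate cultures of a clone, so that p-values measure the spread between these libraries, each guide being represented by clonal cells. Every pair of replicates differed by more than sampling noise (chi-square per gene of at least 3.98).

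Counts were fitted in edgeR 4.0.16 (R 4.3.3) with TMM scaling, filterByExpr (minimum count 10, minimum total 15; 14938 genes tested), robust quasi-likelihood fits over all 6 groups, a prior count of 0.125 and Benjamini-Hochberg adjustment over all genes tested. Fold changes are log2 values with standard errors, and CPM used the TMM-scaled library sizes. Where every library of a group had at most 3 counts, a pooled ratio with an exact 95% conditional binomial interval was given, which covers counting error only. A single exact permutation test of 3 against 3 libraries cannot go below p = 0.1, and none is reported. On data simulated for sgXIST7 against sgCtl in normoxia (13933 genes), 194 of 200 genes changed by a log2 fold of 2 were called, and 0 unchanged genes. The changed genes were drawn from those above a minimum mean count in sgCtl normoxia, so that recovery of scarcer genes was not measured. The simulated libraries also held no deviation shared between replicates.

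The members, the wider list and the marker lists were chosen with earlier results of these data known. A member was given with every library if it was called in a KD clone in normoxia or in hypoxia in any clone, which held for 25. Genes of the wider list were named if called in the same direction in both KD clones in normoxia or in all 3 hypoxia responses. Same-numbered libraries had correlations of deviations above 0.1 in every pair of sgXIST7 against sgCtl in normoxia (0.27 to 0.55), hypoxia against normoxia in sgCtl (0.10 to 0.14) and sgXIST9 against sgCtl in hypoxia (0.26 to 0.61), and not in every pair of the other 5 comparisons. In the last of the 3, sgCtl hypoxia replicate 1 correlated more with a differently numbered sgXIST9 library than with replicate 1 (0.26). Alternatives were DESeq2 1.42.0, other scalings and filters, an adjusted p threshold of 0.05, fits of only the groups compared, a replicate block, and leaving out libraries.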

Additional observations from a re-analysis of the deposited data

Results flagged for a closer look

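BMP7 was the pathway gene whose hypoxia response differed between clones by the interaction test: the log2 response was 2.90 larger in sgXIST9 than in sgCtl (3.42 against 0.51, edgeR adjusted p = 0.00044), with all 3 sgXIST9 libraries higher in hypoxia than any in normoxia. The groups began at different levels, with means of 21.4 CPM in sgCtl and 0.73 in sgXIST9 in normoxia, and ended at 30.5 and 7.75.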

How the results depend on the processing

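Of 92 called fold changes of pathway genes, 68 kept their call under each alternative fit that applied, at most 26 for a fold change. The other 24 lost it under at least 1, 17 of them when a single library was left out, while 0 changed sign. The adjusted p threshold of 0.05 was applied only to the numbers of members called. Fitting only the groups compared lost 11, left 8 untested because the gene fell below the filter, as the filter at a mean CPM of 1 did for 3, and brought the members called in sgXIST9 against sgCtl in hypoxia from 16 to 8. No filter beyond 1 count lost 5, and DESeq2 lost 1. Leaving out the 3 hypoxia libraries numbered 3 lost 2 and raised the members called for hypoxia in sgCtl from 9 to 14, and the interactions from 0 to 3 for sgXIST7 and from 1 to 5 for sgXIST9. It also raised the members called in sgXIST9 against sgCtl in normoxia from 18 to 22. The interaction for sgXIST7 gave 1 member at an adjusted p of 0.05 and 1 by DESeq2, and that for sgXIST9 gave 4 at 0.05, 3 by DESeq2, and 2 with upper-quartile scaling and with a filter at a mean CPM of 1. With single libraries left out, the members called ranged from 3 to 9 in sgXIST7 against sgXIST9, from 6 to 15 for hypoxia in sgCtl (15 without sgCtl hypoxia replicate 3), from 0 to 2 for the sgXIST7 interaction and from 1 to 4 for the sgXIST9 interaction. The causes were not tested. The replicate block lost 0 of the 92 calls, and with it the members called were 14 in sgXIST7 and 19 in sgXIST9 against sgCtl in normoxia, the added call being SMAD3 in sgXIST9 (-1.30, edgeR adjusted p = 0.0029). No scaling moved the median of all genes by 0.1 on the log2 scale. Depth limited the genes with a few counts in a group, among them BMP4, BMP5, GDF6, INHA, INHBA, NOG, TGFB2 and TGFBR2, whose ratios have wide intervals.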
